A study of Mus musculus with 4 samples.

Results

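The genes described here are the natriuretic peptides, their receptors and the 2 main subunits of soluble guanylate cyclase, measured in mouse embryonic hearts. The 8 members were taken by symbol (*Nppa*, *Nppb*, *Nppc*, *Npr1*, *Npr2*, *Npr3*, *Gucy1a1* and *Gucy1b1*), and each symbol stood for 1 of the 32285 gene rows. Hearts were taken at E10.5 from control embryos (Tie2 fl/fl) and from *Tie2-cko* embryos (Nfatc1Cre;Tie2 fl/fl), and both genotypes carried the floxed *Tie2* (*Tek*) alleles. Nfatc1Cre is a knock-in whose recombinase acts in the endocardium, so other endothelial cells keep an intact gene. Each genotype had 2 droplet-based single-cell libraries (10x Genomics), called here control 5, control 7, *Tie2-cko* 6 and *Tie2-cko* 8 by the numbers in their labels. Nothing in the labels pairs a control with a *Tie2-cko* library.

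*Nppa* and *Nppb* encode peptide hormones (ANP and BNP) that are secreted by cardiomyocytes and are the classical transcripts of the forming chamber myocardium. They bind NPR1, a membrane guanylate cyclase, and are removed from the circulation by NPR3, a clearance receptor, whereas the peptide from *Nppc* acts through NPR2. Soluble guanylate cyclase is a heterodimer of an alpha and a beta subunit (*Gucy1a1* and *Gucy1b1*) that makes the same messenger, cyclic GMP, when it binds nitric oxide.

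The counts were deposited as UMIs (unique molecular identifiers, which count each captured transcript once) per gene and barcode. The 4 libraries held 169361996 to 259775540 UMIs, and after filtering 33419 cells remained, with a median of 14898 to 25740 UMIs per cell. Library pairs shared 12 to 29 cell barcodes, at most 0.343% of the smaller library. Cells were clustered without the members, and clusters were named by marker lists that held none of them, so each name stands for cells like that type. The text uses 4 groups of cardiomyocytes (CMs), namely ventricular, atrial, outflow tract (OFT) and a joint group of the atrioventricular canal and sinus venosus (AVC/SV), as well as chamber and cushion endocardial cells (EdCs), vascular endothelial cells (ECs), cushion mesenchymal cells (MCs), epicardial cells, red blood cells (RBCs) and 2 further groups (immune cells with platelets, and epithelial cells). The ventricular clusters could not be told apart by the trabecular and compact marker lists and were kept together. *Tek* checked the labels: its level in chamber EdCs, in UMIs per 10000 UMIs averaged over cells, was 0.879 in control 5 and 1.00 in control 7 against 0.131 in *Tie2-cko* 6 and 0.150 in *Tie2-cko* 8. In vascular ECs, by contrast, *Tek* was at 0.639 and 0.776 in the controls and 0.763 and 0.701 in the *Tie2-cko* libraries.

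*Nppb* and *Nppa* lie in this order on chromosome 4, on the plus strand, at chr4:147985788-147987205 and chr4:148000722-148002079 (GRCm38, GENCODE M21). No other annotated gene lies wholly within the 13516 bases between them. *Gucy1b1* (chr3:82032006-82074689) and *Gucy1a1* (chr3:82092427-82145789) are also neighbours, 17737 bases apart on the minus strand. Of the other members, *Npr1* lies on chromosome 3, *Npr2* on chromosome 4, *Npr3* on chromosome 15 and *Nppc* on chromosome 1. Antisense genes overlap *Nppa* (*Gm13054*), *Npr1* (*Gm16048*) and *Npr2* (*Gm12473*).

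Because *Nppa* and *Nppb* were high in the same CMs, their upstream sequences are shown (RefSeq, GRCm38.p6). The 250 bases before each start were searched on both strands for TGATAA and a second GATA motif written AGATAA, for the NKX2-5 motif AAGTG and for the T-box motif GGTGTGA, and on the gene's strand for TATAAA. Capitals mark the matches, of which none overlap. The first sequence is chr4:148000472-148000721 and ends 1 base before the start of *Nppa*. The second is chr4:147985798-147985827, upstream of the RefSeq start of *Nppb* at base 147985900, a stretch that GENCODE M21 places inside the first exon because its gene model starts 112 bases earlier.
Nppa upstream: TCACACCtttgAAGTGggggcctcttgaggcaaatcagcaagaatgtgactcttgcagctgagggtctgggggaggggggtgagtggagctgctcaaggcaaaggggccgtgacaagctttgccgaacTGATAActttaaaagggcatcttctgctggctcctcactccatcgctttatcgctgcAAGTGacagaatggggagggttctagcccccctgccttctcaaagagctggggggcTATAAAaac
Nppb upstream: atgcagcTGATAAatcagAGATAAccccac
The *Nppa* window held GGTGTGA on the minus strand at -250, AAGTG at -239 and -65, TGATAA at -122 and TATAAA at -9. The *Nppb* window held TGATAA at -95, AGATAA at -84 and TATAAA at -31. Among 32851 upstream windows of 250 bases, 7.94% held TGATAA, 9.99% held AGATAA, 40.7% held AAGTG, 3.33% held GGTGTGA and 7.59% held TATAAA. Of the other members, the *Nppc* window held TATAAA and that of *Gucy1a1* held AAGTG, whereas none of these letters stood in the windows of *Npr1*, *Npr2*, *Npr3* and *Gucy1b1*. The matches describe the letters only, and binding was not measured.

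*Nppa* was high in atrial and ventricular CMs and low in the other CMs. Its level in atrial CMs was 60.4 in control 5, 47.7 in control 7, 70.4 in *Tie2-cko* 6 and 52.9 in *Tie2-cko* 8 (57.8 ± 9.87 UMIs per 10000, SD, n = 4 libraries). In ventricular CMs it was 42.0 and 51.7 in controls 5 and 7 and 37.2 and 33.8 in *Tie2-cko* 6 and 8 (41.2 ± 7.75). The ranges of these 2 groups overlapped, although the atrial value was the higher in 3 of 4 libraries.

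The next groups in the order were AVC/SV CMs at 3.07 ± 0.874 and OFT CMs at 2.98 ± 0.958, and neither range reached the lowest ventricular value. In OFT CMs the level was 4.34, 2.94, 2.34 and 2.28 in control 5, control 7, *Tie2-cko* 6 and *Tie2-cko* 8. From there down to RBCs each group overlapped its neighbour in the order. The log2 ratio of *Nppa* between ventricular and OFT CMs was 3.82 ± 0.378, and that between atrial and OFT CMs was 4.32 ± 0.504.

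**Figure D1:**
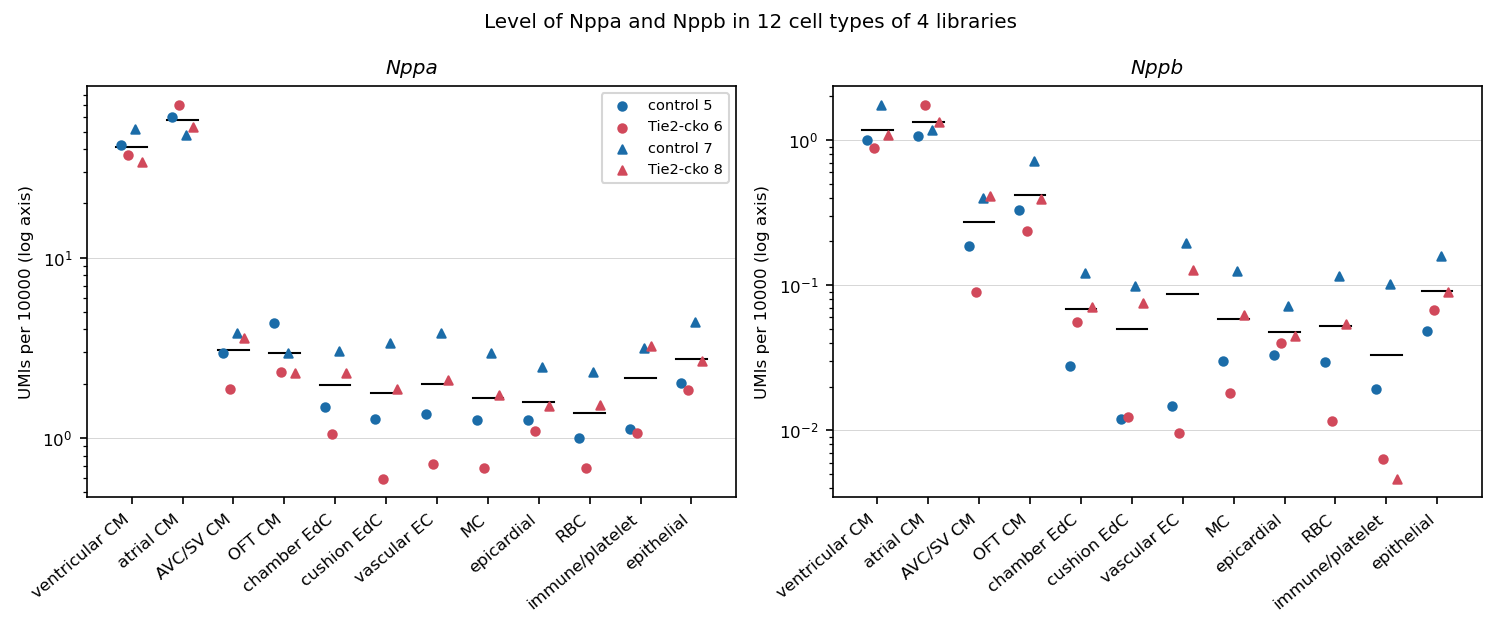
Levels of *Nppa* and *Nppb* (y axes, UMIs per 10000, log scale) in 12 cell types, with 1 point per library and a line at the mean of the 4 libraries. For *Nppa*, atrial and ventricular CMs lie between 33.8 and 70.4 and all other groups at 4.38 or less.

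*Nppa* UMIs were found in every cell type, including RBCs, the type taken as the background. The level in RBCs was 1.00 in control 5, 2.32 in control 7, 0.683 in *Tie2-cko* 6 and 1.53 in *Tie2-cko* 8. Chamber EdCs followed the same order of libraries, with 1.48, 3.04, 1.06 and 2.31, and so did cushion EdCs, with 1.28, 3.38, 0.597 and 1.88. Control 7 was the highest and *Tie2-cko* 6 the lowest library in all 3 types.

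Free RNA from 1 source keeps its transcripts in 1 ratio in every cell type of a library, so *Nppa* was set against 8 CM reference transcripts (*Tnnt2*, *Tnni3*, *Ttn*, *Actc1*, *Actn2*, *Myl4*, *Myl7* and *Myh6*). *Nppa* per 100 reference UMIs was 10.2 ± 1.67 in ventricular CMs, 8.62 ± 0.936 in atrial CMs and 8.17 ± 2.30 in RBCs. It was 7.99 ± 3.15 in chamber EdCs, 8.73 ± 5.83 in cushion EdCs, 8.10 ± 3.36 in vascular ECs and 8.30 ± 1.92 in MCs. Taken over the RBC value of the same library, the ratio in chamber EdCs was 1.12, 1.05, 0.482 and 1.38 in control 5, control 7, *Tie2-cko* 6 and *Tie2-cko* 8, with a mean of 1.01. In cushion EdCs it was 0.879, 1.54, 0.443 and 1.32, with a mean of 1.05. The values of both EdC groups therefore lay on either side of that in RBCs.

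OFT and AVC/SV CMs stood apart in this measure. They held 0.541 ± 0.315 and 0.593 ± 0.112 *Nppa* UMIs per 100 reference UMIs, below RBCs in each library. Their summed reference levels were 637 to 685 and 553 to 661 UMIs per 10000. Epicardial cells held 2.45 ± 1.09, with a summed reference level of 39.4 to 49.3 UMIs per 10000 against 7.26 to 21.1 in RBCs. Their low ratio depended on *Myl4* and *Myl7*. Over the RBC value it was 0.274, 0.348, 0.151 and 0.465 in control 5, control 7, *Tie2-cko* 6 and *Tie2-cko* 8. Without these 2 reference genes it was 0.809, 0.804, 0.522 and 1.14, but still 0.0415 to 0.150 in OFT CMs.

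**Figure D2:**
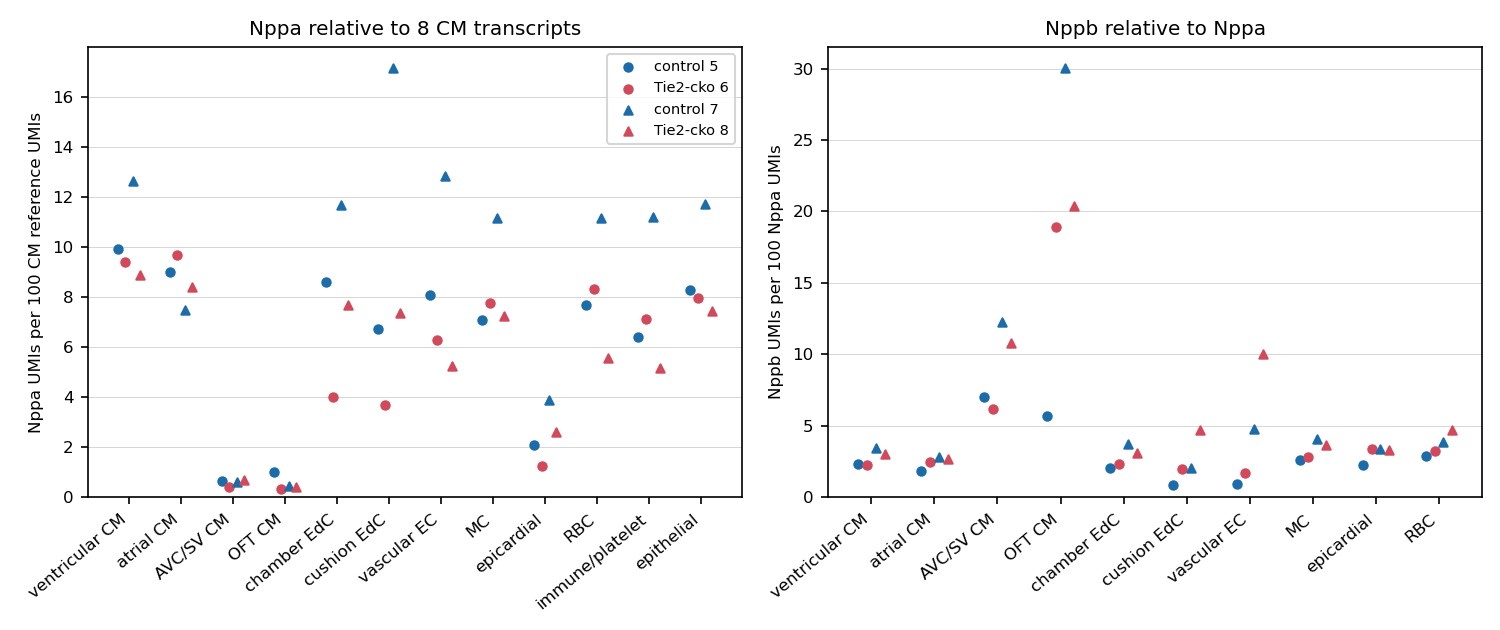
Left, *Nppa* UMIs per 100 UMIs of 8 CM reference transcripts (y axis) in 12 cell types, and right, *Nppb* UMIs per 100 *Nppa* UMIs (y axis) in 10 cell types, with 1 point per library. On the left only AVC/SV CMs, OFT CMs and epicardial cells stay at or below 3.87 in all libraries. The low epicardial values depend on *Myl4* and *Myl7* among the references. On the right OFT CMs spread from 5.71 to 30.1.

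An *Nppa* UMI was common even in cells of the background type. After each cell was thinned to 5500 UMIs, 80.9% ± 3.25 of ventricular and 94.7% ± 1.14 of atrial CMs held an *Nppa* UMI, but so did 38.6% ± 17.0 of RBCs and 52.6% ± 18.8 of chamber EdCs. The unthinned shares were 96.5%, 99.3%, 88.8% and 85.8% in this order, at median depths of 24554.5 to 53346 UMIs in ventricular CMs, 22958 to 55368 in atrial CMs, 22799 to 60176 in RBCs and 11035 to 27637.5 in chamber EdCs. The 99th percentile of RBCs, 2 to 5 *Nppa* UMIs per thinned cell by library, was exceeded by 83.3% of atrial CMs (range over libraries 74.2 to 87.5%), 52.7% of ventricular CMs (47.0 to 55.9%), 7.21% of AVC/SV CMs, 5.62% of OFT CMs and 2.38% of chamber EdCs, against 0.572% of RBCs themselves. Because the cutoff came from RBCs, their own share is low by construction. Cushion EdCs, MCs and epithelial cells exceeded it in each library. Epithelial cells did so with 2.64% in control 5, 1.38% in control 7, 1.59% in *Tie2-cko* 6 and 5.62% in *Tie2-cko* 8. Chamber EdCs exceeded RBCs as well, with 1.40% against 0.354% in control 5 and 1.98% against 1.15% in control 7. Chamber EdCs held 1.57% against 0.207% in *Tie2-cko* 6 and 4.56% against 0.578% in *Tie2-cko* 8. Their summed CM reference level was also the higher in each library, at 17.1, 24.0, 11.7 and 26.3 UMIs per 10000 against 12.3, 19.99, 7.26 and 21.1 in RBCs, and its part in the shares was not tested.

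Among ventricular CMs *Nppa* varied widely from cell to cell. The thinned count was 0 at the 10th percentile in every library, 3.0 to 7.0 at the median and 49.0 to 80.0 at the 90th percentile. Atrial CMs were more even, with 1.0 to 2.0 at the 10th percentile, medians of 17.0 to 25.0 and 61.2 to 76.7 at the 90th percentile. *Nppb* varied with *Nppa*: over single thinned cells the Pearson correlation of log2(UMIs + 1) was 0.463 to 0.534 by library in ventricular CMs and 0.417 to 0.520 in atrial CMs, values that share the depth and the libraries of these cells.

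Ventricular CMs were also divided by *Bmp10*, a growth factor of the trabecular layer, and *Hey2*, a repressor of the compact layer, a division chosen after the data had been seen. Most thinned cells held neither UMI, namely 1326 in control 5, 1445 in control 7, 523 in *Tie2-cko* 6 and 1655 in *Tie2-cko* 8. Their mean *Nppa* counts were 20.4, 23.5, 16.8 and 15.4. In cells with a *Bmp10* UMI and none of *Hey2*, the mean *Nppa* count per thinned cell was 68.0 ± 6.76 (SE over 161 cells) in control 5, 79.2 ± 6.19 (207 cells) in control 7, 64.6 ± 10.9 (84 cells) in *Tie2-cko* 6 and 58.5 ± 4.80 (236 cells) in *Tie2-cko* 8. In cells with a *Hey2* UMI and none of *Bmp10* it was 9.73, 13.2, 7.64 and 8.85. The former exceeded the latter 6.99-, 6.003-, 8.45- and 6.61-fold in these libraries, and *Nppb* did so 5.68-, 4.32-, 9.07- and 7.59-fold. *Gucy1a1* showed no such order, with 0.174, 0.217, 0.262 and 0.203 UMIs per thinned cell in the *Bmp10* cells against 0.211, 0.201, 0.185 and 0.237 in the *Hey2* cells.

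**Figure D3:**
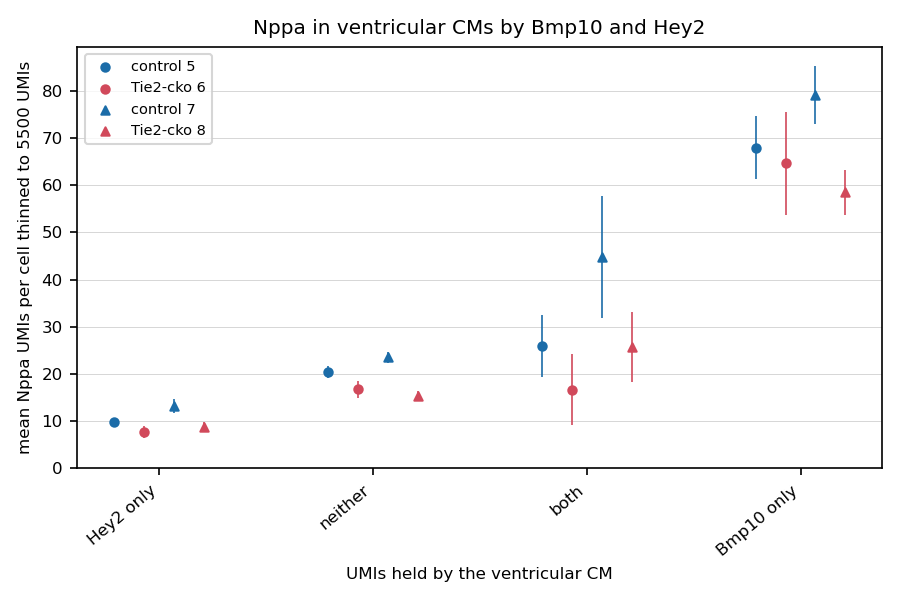
Mean *Nppa* UMIs per ventricular CM thinned to 5500 UMIs (y axis) in cells that held a UMI of *Hey2*, of neither gene, of both or of *Bmp10* (x axis), with 1 point per library and bars of 1 SE over cells. The *Bmp10* cells lie between 58.5 and 79.2 and the *Hey2* cells between 7.64 and 13.2.

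*Nppb* followed *Nppa* at the top of its order but not in the OFT. Its level was 1.33 ± 0.299 UMIs per 10000 in atrial and 1.18 ± 0.385 in ventricular CMs, with overlapping ranges. OFT CMs came next at 0.329, 0.717, 0.234 and 0.393 in control 5, control 7, *Tie2-cko* 6 and *Tie2-cko* 8 (0.418 ± 0.209), all below the lowest ventricular value of 0.881. AVC/SV CMs held 0.272 ± 0.159, and all types outside the myocardium had means of 0.091 or less, against 0.053 ± 0.045 in RBCs.

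The ratio of the ligands differed between CM groups. OFT CMs held 18.8 *Nppb* UMIs per 100 *Nppa* UMIs (5.71 in control 5, 30.1 in control 7, 18.9 in *Tie2-cko* 6 and 20.4 in *Tie2-cko* 8) and AVC/SV CMs 9.04 (6.14 to 12.2). Ventricular CMs held 2.77 (2.26 to 3.47), atrial CMs 2.45 (1.83 to 2.81) and RBCs 3.67 (2.90 to 4.68). In each library the OFT and AVC/SV values lay above the ventricular, atrial and RBC values of that library, and control 5 had the smallest excess in the OFT.

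After thinning, 32.6% ± 5.64 of atrial, 22.3% ± 6.76 of ventricular and 10.2% ± 4.15 of OFT CMs held an *Nppb* UMI against 2.11% ± 1.01 of RBCs and 2.72% ± 2.21 of chamber EdCs. Without thinning these were 61.9%, 46.5%, 27.5%, 9.49% and 7.04%, with 18269 to 46385 UMIs in the median OFT CM. *Nppb* per CM reference UMI in chamber EdCs was 0.763 ± 0.292 of the RBC value, and in cushion EdCs it was 0.266, 0.810, 0.272 and 1.32 of it in control 5, control 7, *Tie2-cko* 6 and *Tie2-cko* 8. The genes most like *Nppa* over the 48 profiles of 12 types in 4 libraries were *Igfbpl1* (Pearson r = 0.92), *Smpx* (0.92), which encodes a muscle cytoskeletal protein, and *Cited1* (0.90), a transcriptional coregulator. Those most like *Nppb* were *Smpx* (0.96), *Igfbpl1* (0.93) and *Hopx* (0.93), a cardiac homeodomain protein. The correlations describe profiles that share libraries and free RNA.

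*Nppc* was close to absent. All 33419 cells together held 62 *Nppc* UMIs among 772527337, of which 13 came from cushion EdCs, 8 each from ventricular CMs, atrial CMs and epithelial cells, 14 from clusters without a name and 1 from the unnamed cells of low UMI count. RBCs and vascular ECs held 0 UMIs, which allows up to 0.0347 and 0.405 UMIs per 1e6 UMIs (3 counts over the group, counting error only). The 13 UMIs of cushion EdCs amounted to 0.691 per 1e6 and came with levels of 0, 0.0287, 0.0032 and 0.0049 UMIs per 10000 in control 5, control 7, *Tie2-cko* 6 and *Tie2-cko* 8, so that control 7 decided the value.

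*Npr3* and *Npr1* were highest in endothelial cells. *Npr3*, the clearance receptor, was highest in chamber EdCs, at 1.91 in control 5, 2.14 in control 7, 1.90 in *Tie2-cko* 6 and 1.548 in *Tie2-cko* 8 (1.87 ± 0.242 UMIs per 10000). Vascular ECs (0.579 ± 0.174) and cushion EdCs (0.558 ± 0.057) followed and overlapped each other, but not chamber EdCs. Below them, without overlap at each step, came epicardial cells (0.311 ± 0.017), MCs (0.090 ± 0.008) and atrial CMs (0.075 ± 0.006). Ventricular CMs held 0.015 ± 0.003 and RBCs 0.005 ± 0.002, so the atrial level was above the ventricular one in each library.

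After thinning, 54.1% ± 5.21 of chamber EdCs, 23.1% ± 1.88 of cushion EdCs and 15.1% ± 1.34 of epicardial cells held an *Npr3* UMI against 0.230% ± 0.246 of RBCs. Without thinning these were 77.0%, 44.5%, 43.0% and 1.503%, at median depths of 11460 to 25652.5 UMIs in cushion EdCs and 17281 to 37255 in epicardial cells (the others are given above). The log2 ratio of *Npr3* between chamber and cushion EdCs was 1.74 ± 0.232. Most like *Npr3* in profile were *Gpr182* (0.93), an endothelial receptor that served as a chamber EdC marker, *Myo6* (0.92) and *Rapgef5* (0.90).

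*Npr1*, the cyclase receptor for both cardiac ligands, was highest in vascular ECs, at 0.412 and 0.443 in controls 5 and 7 and 0.475 and 0.392 in *Tie2-cko* 6 and 8 (0.431 ± 0.036). Chamber EdCs (0.230 ± 0.029) lay below that range and above cushion EdCs (0.161 ± 0.038) in each library, although the last 2 ranges overlapped. Atrial CMs held 0.066 ± 0.006, ventricular CMs 0.045 ± 0.004 and RBCs 0.010 ± 0.002. The order of *Npr1* within the endothelium was thus the reverse of that of *Npr3* for vascular ECs and chamber EdCs. The thinned share of cells with an *Npr1* UMI was 22.3% ± 5.87 in vascular ECs, 9.84% ± 2.03 in chamber EdCs and 0.720% ± 0.432 in RBCs (unthinned 49.6%, 31.1% and 2.92%, with 11273 to 25907.5 UMIs in the median vascular EC). The profiles nearest to *Npr1* were those of *Myct1* (0.92), *Gimap6* (0.92) and *Adgrl4* (0.91), an adhesion receptor of endothelial cells.

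*Npr2*, the receptor for the *Nppc* peptide, was low throughout. Its highest means were 0.026 ± 0.009 in AVC/SV CMs and 0.024 ± 0.006 in MCs, against 0.000576 ± 0.000782 in RBCs, and all neighbours in its order overlapped.

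**Figure D4:**
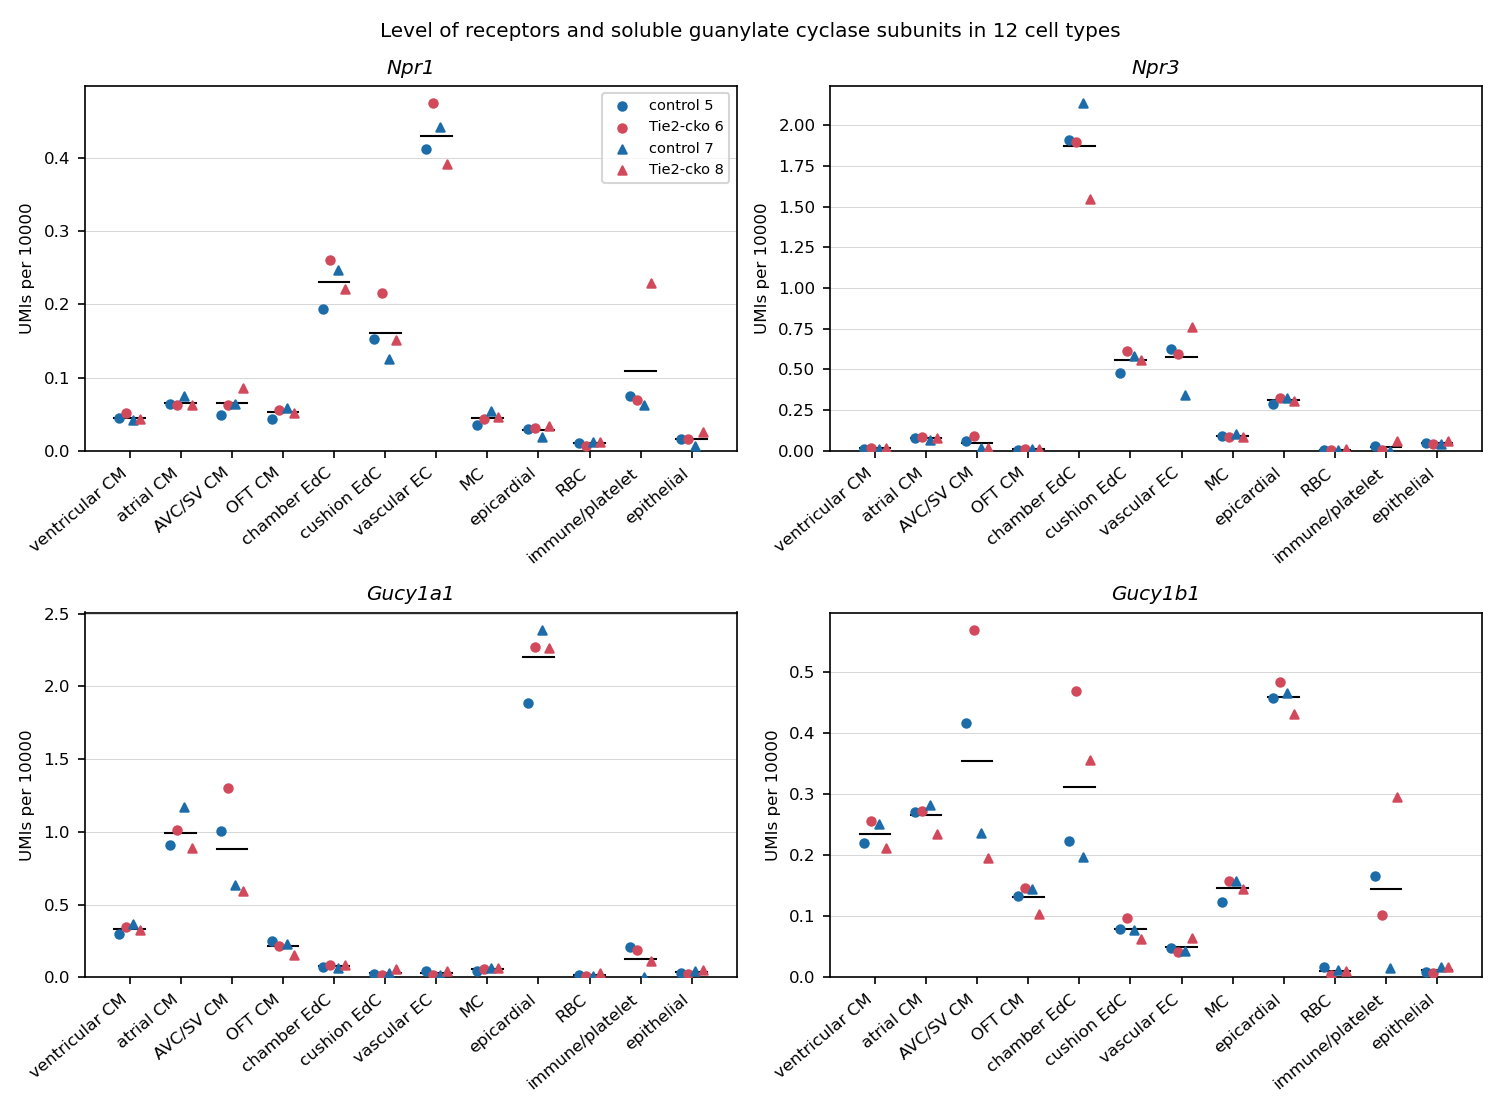
Levels of *Npr1*, *Npr3*, *Gucy1a1* and *Gucy1b1* (y axes, UMIs per 10000, linear from 0) in 12 cell types, with 1 point per library and a line at the mean. *Npr3* peaks in chamber EdCs (1.548 to 2.14) and *Gucy1a1* in epicardial cells (1.89 to 2.39).

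The alpha subunit of soluble guanylate cyclase reached its highest level per cell in epicardial cells. *Gucy1a1* stood at 1.89, 2.39, 2.27 and 2.26 in epicardial cells of control 5, control 7, *Tie2-cko* 6 and *Tie2-cko* 8 (2.20 ± 0.218 UMIs per 10000). Atrial (0.995 ± 0.130) and AVC/SV CMs (0.883 ± 0.335) overlapped each other and lay below it, followed by ventricular CMs (0.334 ± 0.027) and OFT CMs (0.212 ± 0.042). Chamber EdCs held 0.074 ± 0.011, cushion EdCs 0.030 ± 0.017 and RBCs 0.014 ± 0.008. The log2 ratio of *Gucy1a1* between epicardial cells and ventricular CMs was 2.72 ± 0.0567, and that between atrial and ventricular CMs was 1.57 ± 0.105.

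The beta subunit was spread more evenly. *Gucy1b1* was at 0.460 ± 0.022 in epicardial cells, 0.354 ± 0.172 in AVC/SV CMs, 0.311 ± 0.126 in chamber EdCs, 0.265 ± 0.021 in atrial and 0.234 ± 0.022 in ventricular CMs, and each of these overlapped the next. MCs (0.146 ± 0.016), OFT CMs (0.132 ± 0.020) and cushion EdCs (0.079 ± 0.014) were lower, and RBCs held 0.011 ± 0.006. The MC group held unlike clusters. Averaged over all cells of a cluster, *Gucy1b1* was 0.483 in an MC cluster led by *Postn* (712 cells). It was 0.0563 and 0.0558 in MC clusters led by *Twist1* (1661 and 1015 cells). The same average was 0.452 in epicardial cells and 0.274 in chamber EdCs.

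Accordingly the ratio of the subunits differed by cell type. *Gucy1a1* UMIs per *Gucy1b1* UMI were 4.60 ± 0.515 in epicardial cells, 3.37 ± 0.375 in atrial CMs, 2.60 ± 0.171 in AVC/SV CMs, 1.51 ± 0.225 in OFT and 1.44 ± 0.0736 in ventricular CMs. In MCs, pooled over their clusters, the ratio was 0.351 ± 0.0321 and in chamber EdCs 0.262 ± 0.0330. Neither range reached those of the CM groups. *Gucy1a2*, the other alpha subunit, was also low in chamber EdCs, at 0.0525 ± 0.0217 UMIs per 10000, and reached its highest mean over the 12 types in epicardial cells, at 0.0957 ± 0.0124.

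After thinning, 64.5% ± 2.19 of epicardial cells, 38.7% ± 3.03 of atrial CMs and 16.7% ± 1.13 of ventricular CMs held a *Gucy1a1* UMI against 0.922% ± 0.574 of RBCs (unthinned 88.6%, 83.1%, 54.7% and 3.81%). Nearest in profile to *Gucy1a1* were *Rpp25* (0.90), *Dipk2a* (0.88) and *Mgarp* (0.86), whereas no gene was as close to *Gucy1b1*, with *Eea1* (0.77), *Arhgap1* (0.77) and *Ppp1r12a* (0.74), a regulatory subunit of myosin phosphatase, at the head.

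The joint AVC/SV group held unlike cells. At a finer clustering, described apart after the data had been seen, nearly all of it fell into a cluster with *Bmp2* and *Rspo3* and a cluster led by *Shox2* and *Vsnl1*, genes of the sinus venosus. *Gucy1a1* was 1.53, 1.22, 1.95 and 0.851 in the *Shox2* cluster of control 5, control 7, *Tie2-cko* 6 and *Tie2-cko* 8, but 0.305, 0.258, 0.483 and 0.426 in the *Bmp2* cluster. *Gucy1b1* showed the same order, with 0.612, 0.499, 0.841 and 0.268 against 0.145, 0.0872, 0.215 and 0.158. *Nppb* had the opposite one, with 0.0445, 0.209, 0.0363 and 0.0995 in the *Shox2* cluster against 0.411, 0.604, 0.180 and 0.726, whereas *Nppa* was 2.14 to 3.68 in the former and 2.05 to 4.399 in the latter. In each library the *Shox2* cluster was the higher for both cyclase subunits and the lower for *Nppb*. The *Shox2* cluster held 257 and 81 cells of libraries 5 and 6 but 163 and 229 of libraries 7 and 8, against 227, 87, 373 and 382 in the *Bmp2* cluster.

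A list of 32 other genes of the pathway gave its surroundings. *Corin*, which encodes the protease that activates pro-ANP, was at 0.143 ± 0.0268 UMIs per 10000 in chamber EdCs, 0.130 ± 0.0617 in AVC/SV CMs and 0.126 ± 0.0337 in OFT CMs, but at 0.0334 ± 0.00564 in ventricular CMs, where *Nppa* was high. *Furin*, which cleaves pro-BNP, was highest in MCs (0.546 ± 0.0699) and cushion EdCs (0.486 ± 0.0712). *Nos3*, the endothelial nitric oxide synthase, was at 0.482 ± 0.0463 in cushion EdCs, 0.336 ± 0.0596 in chamber EdCs and 0.256 ± 0.0408 in vascular ECs against 0.0122 ± 0.00317 in ventricular CMs. *Nos1* and *Nos2* were below 0.01 in all 12 types.

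Downstream of cyclic GMP, *Prkg1*, its main protein kinase, was highest in atrial CMs (0.485 ± 0.0365), with 0.222 ± 0.0437 in ventricular CMs and 0.0915 ± 0.0101 in chamber EdCs. The phosphodiesterases that degrade the messenger were divided among types, *Pde2a* in vascular ECs (0.341 ± 0.0566), *Pde1a* in MCs (0.422 ± 0.0198) and *Pde3a* in OFT CMs (0.276 ± 0.0382). *Mme*, which encodes neprilysin, a peptidase of natriuretic peptides, was highest in epicardial cells (0.231 ± 0.033).

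The loss of *Tie2* was then compared by cell type, since the deletion was made in the endocardium and any change in CMs would lie outside the recombined cells. For each type the UMIs of a library were added up and tested with edgeR's quasi-likelihood test (2 against 2 libraries, Benjamini-Hochberg adjustment over all genes tested in that type). No member passed the threshold of 0.05 in any single type. Per the study's methods the hearts of a genotype were littermates, and the labels do not tie a library to a heart. The p-values therefore measure the spread between these libraries, and an exact permutation test of 2 against 2 cannot go below p = 0.333.

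In chamber EdCs *Gucy1b1* was the member with the smallest p. Its level was 0.224 in control 5, 0.196 in control 7, 0.469 in *Tie2-cko* 6 and 0.355 in *Tie2-cko* 8, so both *Tie2-cko* libraries lay above both controls. The log2 fold change was 0.83 (SE 0.15), with an unadjusted p = 0.000424 and an adjusted p of 0.233 by edgeR, so that the call was missed. It passed with a block of libraries 5 and 6 against 7 and 8 (0.83, adjusted p = 0.00028, in a fit that called 4.43% of genes) and without the low-count filter (0.82, adjusted p = 0.00194, with 0.875% of genes called). It also passed without control 7 (0.91, adjusted p = 0.0467) and without *Tie2-cko* 8 (0.90, adjusted p = 0.0199), in both of which the lone library is assumed to vary like the other group. The thinned share of chamber EdCs with a *Gucy1b1* UMI was 7.003%, 10.97%, 20.5% and 17.5% in control 5, control 7, *Tie2-cko* 6 and *Tie2-cko* 8, over 127 to 556 cells, against 0.460% in RBCs, and the unthinned share was 27.5%, 23.9%, 58.0% and 30.4% against 2.14%. *Gucy1a1* had a log2 fold change of 0.52 (SE 0.22, adjusted p = 0.719), also with both *Tie2-cko* libraries on top (0.0843 and 0.0828 against 0.0677 and 0.0631).

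Of the 6 members tested there, 0 were called by edgeR or by DESeq2, and 2 had an unadjusted p under 0.05; over all 11524 genes tested 0.00868% were called (*Tek* alone), 21 by DESeq2, and 800 had an unadjusted p under 0.05. *Gucy1b1* and *Gucy1a1* were the 2 of 6 whose *Tie2-cko* libraries both lay above the controls, a pattern shown by 24.0% of genes. The summed CM reference transcripts in chamber EdCs were 17.1 and 24.0 UMIs per 10000 in the controls and 11.7 and 26.3 in the *Tie2-cko* libraries. *Gucy1a1* per *Gucy1b1* UMI in these cells was 0.288, 0.294, 0.238 and 0.231 in control 5, control 7, *Tie2-cko* 6 and *Tie2-cko* 8, in each library under 0.3 and so far below the 4.07 to 5.18 of epicardial cells.

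The genotype effect on *Gucy1b1* differed between chamber EdCs and CMs. Summed over all CMs its log2 fold change was -0.04 (SE 0.12, adjusted p = 1.00), and the term for the interaction of genotype and type, blocked by library, gave a difference of 0.87 (SE 0.13, adjusted p = 0.00475 by edgeR). In this fit 4 of the 7 members and 1676 of all genes tested had an unadjusted p under 0.05. The targeted gene *Tek* was not called, with a difference of -0.96 (SE 0.36, adjusted p = 0.296 by edgeR). Its own log2 fold change in CMs was -1.53 (SE 0.43), from low levels. The mean *Tek* level was 0.0041 in ventricular, 0.0044 in atrial, 0.0046 in OFT and 0.0131 in AVC/SV CMs. In RBCs, the background type, *Tek* was 0.0028 and 0.0123 in controls 5 and 7. It was 0.000215 and 0 in RBCs of *Tie2-cko* 6 and 8. The part of this background in the CM value was not tested. Of the 7 members only *Gucy1b1* was called, beside 0.578% of 15385 genes, and 0.429% in this direction. The call was kept in each of 10 other settings, with differences of 0.85 to 0.92 and adjusted p-values of 3.58e-07 to 0.00776.

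The receptors showed no call. *Npr3* had a log2 fold change of -0.24 (SE 0.14, adjusted p = 0.823) in chamber EdCs, where both *Tie2-cko* libraries (1.90 and 1.548) lay below the controls (1.91 and 2.14), *Tie2-cko* 6 by a small margin, while the summed counts, scaled to their totals, overlapped. In cushion EdCs it was -0.13 (SE 0.15, adjusted p = 1.00), and this sign turned in 2 other settings. *Npr1* was at 0.194 and 0.246 in control and 0.260 and 0.221 in *Tie2-cko* chamber EdCs, with a log2 fold change of 0.16 (SE 0.17, adjusted p = 0.898) and overlapping groups.

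For the ligands, ventricular *Nppa* was lower in both *Tie2-cko* libraries (37.2 and 33.8) than in both controls (42.0 and 51.7). The log2 fold change of -0.38 (SE 0.13) had an unadjusted p = 0.0262 and an adjusted p of 1.00 by edgeR. No gene was called in ventricular CMs (0% of 14647, with 83 at an unadjusted p under 0.05 and 1 called by DESeq2), and *Nppa* was the only 1 of 7 members with both *Tie2-cko* libraries below the controls, as 6.20% of genes were. *Nppb* had a log2 fold change of -0.55 (SE 0.28, adjusted p = 1.00) and overlapped, with 1.01 and 1.74 in controls against 0.881 and 1.09. It passed without control 5 (-0.92, adjusted p = 0.0302) and with libraries 5 and 6 set against 7 and 8 as a block (-0.49, adjusted p = 0.0116). Atrial *Npr2* had a log2 fold change of -1.39 (SE 0.42, adjusted p = 1.00) at a level of 0.0113. In atrial CMs *Nppa* overlapped between genotypes, with the highest and the third highest value in the *Tie2-cko* libraries. Atrial *Nppb* went the other way from ventricular *Nppb*. It was higher in both *Tie2-cko* libraries (1.75 and 1.33) than in both controls (1.07 and 1.18). Its log2 fold change was 0.26 (SE 0.14, unadjusted p = 0.112 by edgeR), and it was not called.

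Outside the chamber myocardium the fitted *Nppa* differences were negative as well. They were -0.67 (SE 0.45) in chamber EdCs, -1.34 (SE 0.56) in cushion EdCs, -0.99 (SE 0.37) in OFT CMs, -0.83 (SE 0.50) in MCs and -0.71 (SE 0.41) in epicardial cells, none of them called (adjusted p of 0.846 to 1.00 by edgeR). In RBCs the controls held 1.00 and 2.32 UMIs per 10000 and the *Tie2-cko* libraries 0.683 and 1.53, an order of libraries that both EdC groups shared and OFT CMs did not, and the part of this background in the differences was not tested. The calls depended on the setting. With all 4 libraries but no low-count filter, *Nppa* passed in chamber EdCs (-0.69, adjusted p = 0.00541), cushion EdCs (-1.35, adjusted p = 1.68e-11), OFT CMs (-0.97, adjusted p = 4.31e-05) and MCs (-0.84, adjusted p = 0.000231). With libraries 5 and 6 set against 7 and 8 as a block, it passed in chamber EdCs (-0.79, adjusted p = 0.00156), cushion EdCs (-1.30, adjusted p = 9.65e-33), OFT CMs (-0.85, adjusted p = 8.54e-06), MCs (-0.88, adjusted p = 5.17e-21) and epicardial cells (-0.76, adjusted p = 2.56e-13). With 1 library left out it passed without control 5 in chamber EdCs (-1.01, adjusted p = 0.000701), without *Tie2-cko* 8 in chamber EdCs (-1.73, adjusted p = 2.11e-06), cushion EdCs (-2.38, adjusted p = 0.000435), OFT CMs (-1.23, adjusted p = 0.000199) and epicardial cells (-1.52, adjusted p = 7.96e-08), and without control 7 in OFT CMs (-1.499, adjusted p = 1.68e-09). In the main fits, where *Nppa* was not called, the share of genes called was 0.0445% in cushion EdCs and 0.0420% in epicardial cells. It was 0% in CMs together, atrial, AVC/SV and OFT CMs and MCs. The block called 4.43% of genes in chamber EdCs, 0.694% in cushion EdCs, 0.203% in OFT CMs, 0.763% in MCs and 0.571% in epicardial cells. Without the low-count filter the shares were 0.875% in chamber EdCs, 0.164% in cushion EdCs, 0.0681% in OFT CMs and 0.128% in MCs.

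**Figure D5:**
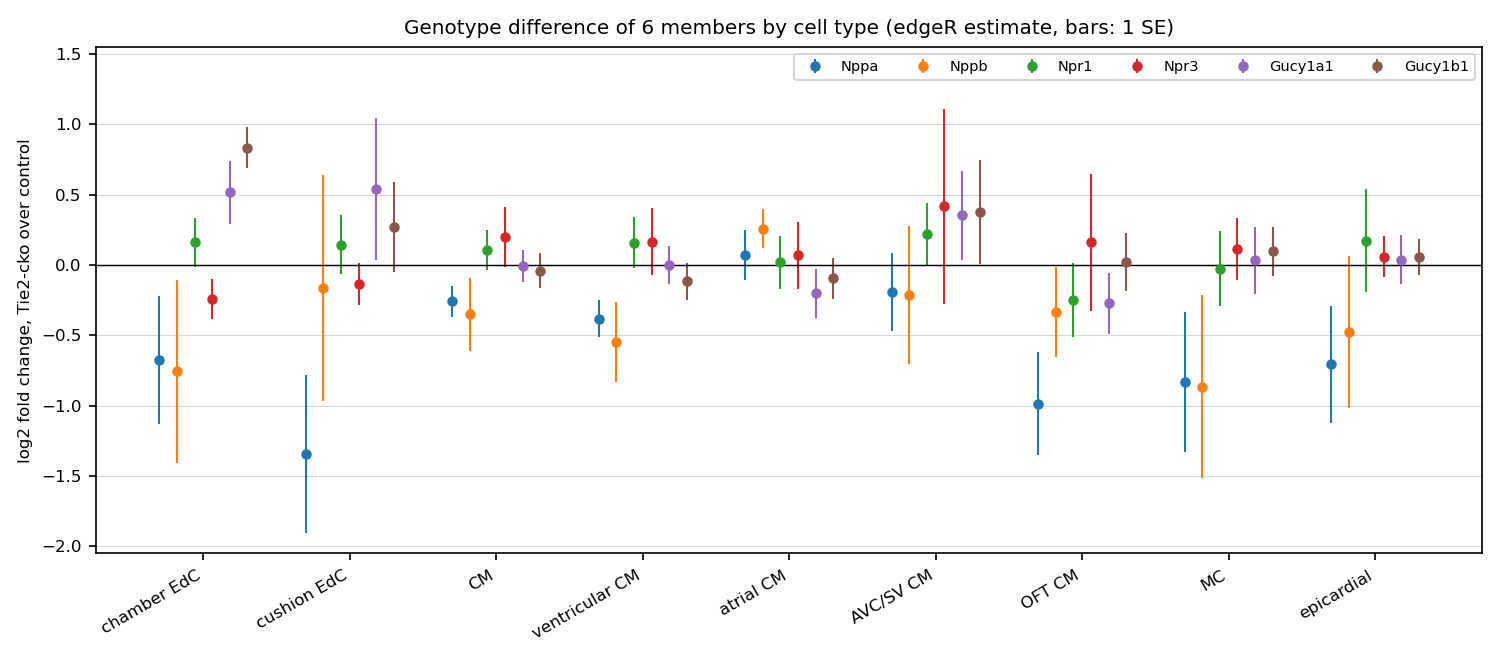
Log2 fold change of *Tie2-cko* over control (y axis) for 6 members in 9 cell groups, as fitted by edgeR, with bars of 1 SE and 2 libraries per genotype. *Gucy1b1* in chamber EdCs lies at 0.83, and the *Nppa* estimates lie between -1.34 and 0.07.

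In the pathway list, 0 of 16 genes tested in chamber EdCs and 0 of 24 in CMs were called in either direction by edgeR or DESeq2. The median log2 fold change was 0.07 in chamber EdCs (0.00 over all genes) and 0.02 in CMs (0.01 over all genes). In chamber EdCs 2 of the 16 had an unadjusted p under 0.05, both higher in *Tie2-cko*, against none of the 24 in CMs. Over all genes tested the counts were 800 of 11524 in chamber EdCs and 58 of 15563 in CMs. The contrast is therefore not particular to the pathway list. *Pde2a*, a phosphodiesterase that cyclic GMP stimulates, was at 0.0552 and 0.0472 in the controls and 0.109 and 0.0962 in the *Tie2-cko* libraries (log2 fold change 1.16, SE 0.24, adjusted p = 0.301), and it passed without control 5 (1.32, adjusted p = 0.0178), without the low-count filter (1.15, adjusted p = 0.00379) and with the block (1.16, adjusted p = 0.00455). *Pde3b* had a log2 fold change of 0.67 (SE 0.26, adjusted p = 0.704). In cushion EdCs the *Pde2a* value was 1.49 (SE 0.56, adjusted p = 1.00), from a mean level of 0.0211.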

How the data were processed

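The 4 droplet libraries, 2 per genotype, hold cells of mouse hearts at E10.5. The authors deposited UMI counts per gene and barcode, which are raw counts without normalization. The submitters' processing notes name Cell Ranger and the mm10 genome, and the file headers give cellranger 6.1.2, whereas the gene annotation is not given in the sources used here. Whether the counting used strand is likewise not given here, so UMIs of a member and of an overlapping antisense gene cannot be told apart.

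Barcodes were kept from 500 genes and 1000 UMIs upwards if mitochondrial transcripts made up no more than 10%, and doublets were removed per library with Scrublet in scanpy 1.11.5 at 0.8% per 1000 barcodes. Clusters came from Seurat 5.3.0 (2000 variable genes without the 40 members and pathway genes, 30 components, 20 neighbours, resolution 0.8) and were named by marker lists. Levels are the mean over cells of UMIs per 10000, given as mean ± SD over the 4 libraries. For shares, each cell was thinned to 5500 UMIs and shallower cells were left out; intervals and zero limits cover counting error only. In the 12 types, 26 to 226 cells were left out this way.

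Genotypes were compared with edgeR 4.0.16 (TMM, filterByExpr, quasi-likelihood test, Benjamini-Hochberg adjustment over all genes tested, threshold 0.05) on counts summed per library and type, in R 4.3.3, with DESeq2 1.42.0 as an alternative. In counts simulated for chamber EdCs over 11349 genes, of which 200 were shifted by 1 log2 unit, 131 of these were called, with 21 false calls. The false calls were 21 of 152, a larger share than the threshold of 0.05. Each gene was drawn independently, so shifts that many genes of a library share, such as those of free RNA, were not simulated. The text names the 8 members, the 32 pathway genes, the markers, the CM reference genes and, for each member with a level of at least 0.1 in a type, the 3 genes with the highest Pearson correlation of log2(level + 0.05) over 48 profiles, among 4377 genes with a level of at least 0.5 in a type. The members and lists were chosen with earlier results of these data known. Upstream windows came from RefSeq and positions from GENCODE M21.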

Additional observations from a re-analysis of the deposited data

Results flagged for a closer look

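The genotype effect on *Gucy1b1* differed between chamber EdCs and CMs by 0.87 on the log2 scale, by edgeR's test of the cell type by genotype term. The value in chamber EdCs alone was 0.83 and that in CMs -0.04. Of the 15385 genes tested in this comparison, 0.578% were called, and *Tek* was not among them (-0.96, adjusted p = 0.296 by edgeR).

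*Nppa* was also measured in 3925 cells of low UMI count that were left without a name and entered no comparison. Over all 3925 cells the *Nppa* level was 13.3 UMIs per 10000 in control 5, 22.6 in control 7, 16.5 in *Tie2-cko* 6 and 15.9 in *Tie2-cko* 8, against 1.00, 2.32, 0.683 and 1.53 in RBCs. The summed CM reference transcripts of these cells were 139, 214, 126 and 214 UMIs per 10000 in the same order, and *Nppa* per 100 reference UMIs was 10.0 ± 3.12, against 8.17 ± 2.30 in RBCs and 10.2 ± 1.67 in ventricular CMs. The 3925 cells fell into unlike clusters. Averaged over all cells of a cluster, *Nppa* was 34.9 where *Myl2*, *Myl1* and *Nppa* itself were among the leading genes (899 cells). It was 9.25 in a cluster led by *Barx1*. A cluster with *Emcn* and *Irx5* among its leading genes lay between these values. What part free RNA had in the *Nppa* signal of these clusters was not tested.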

How the results depend on the processing

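The main fits used no pairing because the labels give control (5, 7) and *Tie2-cko* (6, 8) libraries no shared replicate numbers. In some groups the cell numbers set libraries 5 and 6 apart from 7 and 8. Hepatic cells numbered 243, 313, 0 and 46 in libraries 5, 6, 7 and 8, and an unnamed cluster led by *Barx1* 525, 554, 3 and 4. RBCs did not divide so, with 1147, 505, 657 and 185. The cause of these differences was not tested. The methods put somite-matched libraries of a litter on 1 lane without saying which match, so the block below is 1 assumed pairing. A replicate block that set libraries 5 and 6 against 7 and 8 called 2 members in chamber EdCs, 1 in cushion EdCs, 2 over the CM regions, 3 over MCs and epicardial cells and 1 pathway gene, where no member or pathway gene was called without it. Without the low-count filter these counts were 2, 1, 1, 1 and 1. Over all genes the block called 4.43% in chamber EdCs, 0.694% in cushion EdCs and 0.0879 to 0.763% in the other types, and the fit without the filter 0.875%, 0.164% and 0 to 0.128%. Leaving out 1 library at a time gave 0 to 2, 0 to 1, 0 to 1, 0 to 1 and 0 to 1, and 0 in CMs together, beside 0.446 to 1.35% of all genes in chamber EdCs, 0.0254 to 0.219% in cushion EdCs and 0 to 0.570% in the other types. In the interaction, 2 members were called without the filter and 1 to 3 with a library left out (3 without control 5, 2 without *Tie2-cko* 6 and 2 without *Tie2-cko* 8), beside 1.27% and 0.405 to 2.36% of all genes. The calls beyond *Gucy1b1* and *Pde2a* in these settings were of *Nppa* and *Nppb*, and in the interaction of *Nppa* and *Npr3*; the cause was not tested. *Npr3* in cushion EdCs turned to 0.094 with stricter cell filters and to 0.0081 with the listed genes among the variable genes.

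With the stricter filters the log2 ratio of *Nppb* between ventricular and OFT CMs was 2.22, that of *Npr1* between vascular ECs and chamber EdCs 1.15, that of *Npr3* between chamber and cushion EdCs 1.44, that of *Gucy1a1* between epicardial cells and ventricular CMs 2.83, and *Nppb* per reference UMI in OFT CMs 0.155 of that in RBCs. The *Nppb* log2 ratio was 1.89 without doublet removal and 1.93 at resolution 1.2, where the OFT value over RBCs was 0.224. Shares moved with depth, as thinning to fewer UMIs must do: at 3000 UMIs they were 72.0% (*Nppa*, ventricular CMs), 38.5% (*Npr3*, chamber EdCs), 12.3% (*Npr1*, vascular ECs) and 44.6% (*Gucy1a1*, epicardial cells), and without thinning 96.5%, 77.0%, 49.6% and 88.6%, with 89.2% for *Nppa* in OFT CMs and 35.0% for *Gucy1b1* in chamber EdCs. Of the values that answer a comparison, 170 stayed on their side or within their spread and 41 moved. For levels and reference ratios, leaving out 1 library cannot move the mean beyond the spread of the 4 libraries. Those values are part of the 170 by design and do not measure stability. The depth limits *Nppc* and *Npr2*, which were too low to be tested in EdCs.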
